A study of Homo sapiens with 6 samples.

Results

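The genes of protein processing in the endoplasmic reticulum (ER) were compared between LX-2 cells, an immortalised human hepatic stellate cell line, that received recombinant human Sema3C (rhSema3C, 300 ng/ml) and LX-2 cells that received PBS, both for 48 h. Sema3C is a secreted guidance protein of the semaphorin family, and the comparison asked how the transcriptome of a stellate cell line responded to it. The mRNA was sequenced from 3 samples per group, which the labels call biological replicates of the single line without saying how the cultures were separated, so the p-values measure the spread between these samples. The members were the genes that the deposited table assigns to the KEGG entry for ER protein processing. Of 160 such genes, 4 (ATF4, DDIT3, PPP1R15A and NFE2L2) were left out by rule and 10 had a mean FPKM (fragments scaled by transcript length and library size) under 0.5, among them DERL3, MAPK10, CRYAB, FBXO2 and HSPA2. The other 146 were members, among 14178 genes tested and 33900 in the table.

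Secreted and membrane proteins enter the ER through the Sec61 channel, receive N-linked glycans, and fold with the help of lumenal Hsp70 and Hsp90 chaperones, protein disulfide isomerases and the lectins calnexin and calreticulin. Proteins that fail to fold are recognised, pulled back to the cytosol and degraded by the proteasome, a route called ER-associated degradation (ERAD), and folded cargo leaves in vesicles coated with COPII. A load of unfolded protein is sensed by IRE1 (ERN1), PERK (EIF2AK3) and ATF6, which act through splicing of XBP1 mRNA, phosphorylation of eIF2α and a cleaved transcription factor. Stellate cells are the main collagen-secreting cells of the liver and rely on this machinery.

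Libraries held 68267808 to 89245585 counts, and the members took 2.97% to 2.99% of the counts in PBS samples and 2.87% to 2.91% in rhSema3C samples. The summed FPKM of 10 stellate and mesenchymal markers ran from 1500 to 1550 in PBS and from 1190 to 1260 with rhSema3C, and 7 of the 10 reached a mean FPKM of 1, whereas COL1A2, DES and DCN were near 0. Most of each sum was VIM, at 1002 to 1074 FPKM in PBS and 814 to 869 with rhSema3C. COL1A1 was at 89.1 to 102.8 FPKM in PBS and 58.1 to 62.3 with rhSema3C, and ACTA2 at 13.45 to 14.95 and 9.84 to 10.97. PDGFRB was not lower, at 4.35 to 5.21 FPKM in PBS and 5.11 to 5.61 with rhSema3C. Of the markers of other cell types, hepatocyte genes summed to 2.64 to 3.16 FPKM in PBS and 3.52 to 4.16 with rhSema3C, with ALB at or near 0 in every sample. The leukocyte list summed to 94.7 to 103 in PBS and 66.9 to 72.7 with rhSema3C, nearly all from CD68 and CD14, and PTPRC was near 0. Endothelial markers (0.797 to 1.05 against 1.26 to 1.67) and epithelial markers (2.37 to 3.92 against 3.2 to 3.68) were low in both groups. In bulk RNA of this kind, a change in the share of cells and a change in RNA per cell cannot be told apart.

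The pathway did not move as a block. With rhSema3C, 44 members rose, 66 fell and 36 passed in neither direction at an adjusted p under 0.05 by edgeR's quasi-likelihood test, so that 75.3% of the members were called. Changes were broad across the transcriptome, where 62.3% of all genes tested were called. The members called higher (30.1%) were close to the 31.7% of all genes that rose, whereas 45.2% of the members fell against 30.6% of all genes. The median log2 fold change was -0.08 over the members and 0.02 over all genes tested. The members were more abundant than all genes tested (median FPKM 17.9 against 4.84), with a smaller standard error of the fit (median 0.05 against 0.081). With only genes of a mean FPKM of at least 5, the difference was small. Calls were then 47.8% higher among members and 49.8% higher among all genes, with median log2 fold changes of -0.013 and -0.005. The changes were small in size. Past 1.5-fold, 7 members rose, beside 11.3% of all genes, and 12 fell, beside 9.77%. Past 2-fold, XBP1 and SEC31B rose, beside 3.31% of all genes, and no member fell, beside 2.06%, the lowest log2 fold change being -0.79. The normalised counts of the groups did not overlap for 116 members (48 above and 68 below PBS), where 67.8% of all genes tested had groups without overlap.

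The direction of change of a member moved with its base composition. Across the 146 members, log2 fold change and the GC content of the longest GENCODE transcript had a Pearson r of -0.62 and a Spearman rho of -0.67, and across 14096 genes tested they were -0.39 and -0.48. These points share the same 6 libraries. Of the 73 members at or under the median GC content of 46.5%, 40 rose and 11 fell. Of the 73 above it, 4 rose and 55 fell. All genes tested split the same way, with 54.4% higher and 9.42% lower at or under that content, and 15.5% higher and 45.9% lower above it. When the dependence on GC content and transcript length was removed within each library, 30 members rose (20.5%) and 80 fell (54.8%) with a median of -0.14, beside 24.8% and 31.4% of all genes. Of the 110 members called before this removal, 89 kept their sign, 73 kept both call and sign, and 8 were called in the opposite direction. These counts were not made over all genes tested, so they cannot be read as particular to the members. Values after this removal are given below for genes whose call or sign it changed and for the main genes of each list. Whether the trend came from the libraries or from the cells was not tested. The scale of the samples moved the split as well, since the calls were 40% higher with TMM factors, 52.3% higher with library size alone, 52.9% higher on log2(FPKM + 1) and 71% higher on log2(TPM + 1). Among all genes called, the corresponding shares were 50.9%, 62.2%, 61.3% and 74.1%. Library size alone moved the median of all genes from 0.02 to 0.13 and that of the members from -0.08 to 0.03, and on log2(TPM + 1) the medians were 0.23 and 0.15, so the members' median stayed under that of all genes on each of these scales. There were 50 members, 21 higher and 29 lower, called in the same direction in each of the 16 alternative fits that included them. The same count was not made over all genes tested, so whether members kept their calls more or less often than other genes is not known.

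Among the stress sensors and their signalling genes, the transcripts of all 3 sensors and of XBP1 rose. XBP1, the transcription factor activated by IRE1 splicing (chr22:28794555-28800597, minus strand), stood at 20.3, 20.1 and 18.4 FPKM in PBS and at 51.0, 52.4 and 50.1 FPKM with rhSema3C. Its groups were far apart, and the log2 fold change was 1.28 (SE, the standard error of the fit, 0.05) with an adjusted p of 7.06e-09 by edgeR's quasi-likelihood test. The gene counts do not separate the spliced from the unspliced form. EIF2AK3, which encodes the kinase PERK, was listed at 2.46, 2.06 and 2.48 FPKM in PBS and at 4.18, 4.24 and 3.96 with rhSema3C. ATF6, the membrane-bound factor cleaved under stress, went from 6.81, 6.73 and 6.50 FPKM to 10.8, 10.1 and 10.4. ERN1, which encodes IRE1, went from 4.72, 4.61 and 4.8 FPKM to 5.85, 5.83 and 6.0. No rhSema3C sample overlapped a PBS sample in any of these 3 genes, and the log2 fold changes were 0.72 (SE 0.09), 0.54 (0.05) and 0.22 (0.05), with adjusted p-values of 4.79e-05, 2.82e-06 and 0.00151 by edgeR's quasi-likelihood test. After removal of the GC and length trend XBP1, EIF2AK3, ATF6 and ERN1 had log2 fold changes of 0.99, 0.53, 0.23 and 0.29, and each was called higher in every alternative fit that included it.

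The other genes of this list went both ways. In total 9 of its 22 members rose, 10 fell and 3 did not pass, with a median of 0.04. This median was 0.02 without PBS replicate 1 or without rhSema3C replicate 2. It was 0.26 on log2(TPM + 1) and -0.09 without the GC and length trend, beside 0.23 and -0.03 over all genes. Of the list 40.9% rose and 45.5% fell, beside 31.7% and 30.6% of all genes. ATF6B, the paralog of ATF6, fell from a mean of 35.5 FPKM to 26.6 FPKM (log2 fold change -0.52). The proteases that cleave ATF6 in the Golgi moved apart, with MBTPS2 higher (0.44) and MBTPS1 lower (-0.22), but after removal of the GC and length trend MBTPS2 was at 0.10 and did not pass, and MBTPS1 was at 0.01 on log2(TPM + 1). MAP3K5, the kinase ASK1 that acts downstream of IRE1, rose (0.49). Several genes of cell death fell. BCL2, an inhibitor of apoptosis, was listed at 0.948, 0.752 and 0.905 FPKM in PBS and 0.531, 0.623 and 0.466 with rhSema3C (log2 fold change -0.79), while its pro-apoptotic relatives BAK1 (-0.67) and BAX (-0.57) fell as well. The calpain CAPN1 (-0.68) and WFS1 (-0.69), an ER membrane protein mutated in Wolfram syndrome, fell in the same range, and CAPN2, the other calpain and 1 of the 3 most abundant genes of the list, fell less (-0.22, from 46.9 to 43.2 FPKM), with a value of 0.01 on log2(TPM + 1). BCL2, BAK1, BAX, CAPN1 and WFS1 were called lower in every alternative fit that included them.

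**Figure D1:**
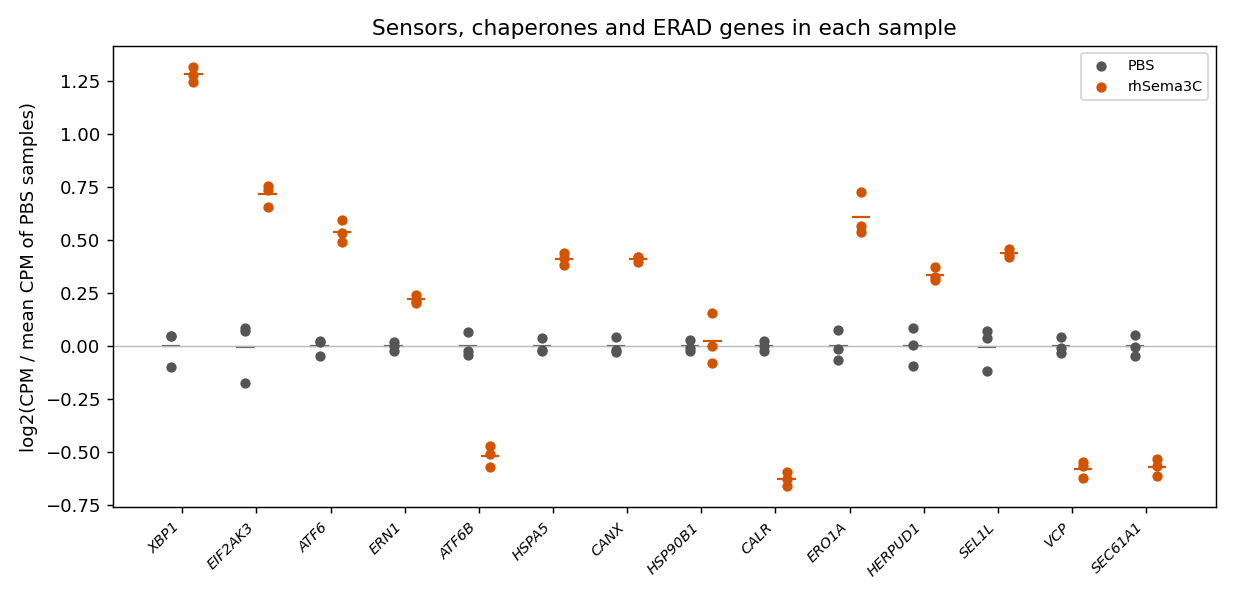
Normalised counts of 14 members (CPM, counts scaled to library size and TMM factor) in each sample. They are shown as the log2 ratio to the mean of the 3 PBS samples (y axis), with PBS in grey and rhSema3C in orange. A short bar marks each group's mean. The groups are separate for every gene but HSP90B1, whose PBS samples lie within the range of the rhSema3C samples.

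Of the 18 ER lumen chaperones and folding enzymes, 6 rose, 6 fell and 6 did not pass, with a median of -0.02. Both shares were 33.3%, close to the 31.7% of all genes that rose and the 30.6% that fell. On log2(TPM + 1) 13 were higher and 2 lower, with a median of 0.20. All 14178 genes then had 6934 higher, 2428 lower and a median of 0.23. Without the GC and length trend 6 (33.3%) were higher and 8 (44.4%) lower, beside 24.8% and 31.4% of all genes. HSPA5, the lumenal Hsp70 BiP (chr9:125234853-125241343, minus strand), was listed at 149, 149 and 156 FPKM in PBS and at 220, 217 and 212 FPKM with rhSema3C, with no overlap and a log2 fold change of 0.41 ± 0.04 (SE, adjusted p = 3.95e-06 by edgeR's quasi-likelihood test). Its lumenal Hsp90 partner HSP90B1 (GRP94) was at 117, 114 and 114 FPKM and at 116, 137 and 124 FPKM. Those groups overlapped on the normalised scale, and the log2 fold change of 0.03 (SE 0.06) did not pass, although it was called lower at -0.27 after removal of the GC and length trend. The lectin chaperones moved in opposite directions. The membrane-bound calnexin gene CANX went from 102, 101 and 107 FPKM to 148, 149 and 147 FPKM (log2 fold change 0.41, SE 0.04), and the soluble calreticulin gene CALR (chr19:12938578-12944489, plus strand), the most abundant member in PBS, went from 544, 549 and 537 FPKM to 385, 369 and 379 FPKM (-0.63, SE 0.04, adjusted p = 1.36e-07 by edgeR's quasi-likelihood test). Neither gene's groups overlapped. The calls of HSPA5, CANX and CALR held in all 16 alternative fits, with values of 0.30, 0.13 and -0.46 without the GC and length trend.

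Among the enzymes of disulfide formation, the ER oxidases rose and several isomerases fell. ERO1A, the main oxidase, was at 21.6, 20.1 and 19.6 FPKM in PBS and 31.7, 36.3 and 32.6 with rhSema3C, a log2 fold change of 0.61 (SE 0.06). The low-abundance ERO1B rose from a mean of 0.831 to 1.32 FPKM (0.56, SE 0.14), and its call was lost without the GC and length trend (0.22, adjusted p = 0.16 by edgeR's quasi-likelihood test). The isomerase P4HB, listed at a mean of 279 FPKM in PBS and 252 FPKM with rhSema3C, fell by 0.25 on the log2 scale, but its value was 0.01 without the GC and length trend. TXNDC5 (-0.40) and PDIA4 (-0.30) fell, while PDIA3 (-0.08) and PDIA6 (-0.07) did not pass, both being called lower without the GC and length trend (-0.28 and -0.19) and higher on log2(TPM + 1) (0.15 and 0.16). The counts of TXNDC5 may include those of a readthrough transcript on the same strand. HYOU1, the large Hsp70-related nucleotide exchange factor for BiP, passed as lower with TMM factors (-0.17, from a mean of 37.8 to 36.1 FPKM), but did not pass with library size alone (-0.06) and was at 0.04 without the GC and length trend.

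Promoter sequence is shown for the members that carry an ER stress element, the site through which ATF6 and XBP1 are known to act, because these genes included rises, a fall and a gene that did not pass. The window ran from 250 bases before to 50 after the RefSeq start (GRCh38.p14), and 127 of the 146 members were matched to one. The element, CCAAT and CCACG separated by 9 bases on either strand, was found in 6 of the 127 (4.72%). It was found in 14 of 9951 promoters of genes tested (0.141%) and in 22 of 27305 promoters of all genes (0.0806%). The 6 were XBP1, HSPA5, CANX, ERO1B, CALR and HSP90B1, which had 2 copies, and 5 of the 16 matched genes of the ER lumen list (31.2%) had it. Capitals mark both parts of the element, each stretch is written 5′ to 3′ on the strand of its gene, and CGTGG followed by ATTGG is the element on the opposite strand.
XBP1, chr22:28800598-28800626, minus strand: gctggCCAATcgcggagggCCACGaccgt
HSPA5, chr9:125241386-125241414, minus strand: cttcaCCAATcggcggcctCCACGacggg
CANX, chr5:179698773-179698801, plus strand: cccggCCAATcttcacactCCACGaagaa
ERO1B, chr1:236282178-236282206, minus strand: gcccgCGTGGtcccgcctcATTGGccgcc
HSP90B1, chr12:103930211-103930239, plus strand: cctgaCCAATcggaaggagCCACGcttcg
HSP90B1, chr12:103930316-103930344, plus strand: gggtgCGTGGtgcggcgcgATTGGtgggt
CALR, chr19:12938379-12938407, plus strand: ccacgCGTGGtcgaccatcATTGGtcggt

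Of these 6 genes, 4 rose (XBP1, HSPA5, CANX and ERO1B), CALR fell and HSP90B1 did not pass, so the presence of the element in this window did not go with a single direction. The stretches of CANX and HSP90B1 lie inside the gene as the deposited table bounds it, downstream of the start of a longer form, and the others lie upstream of the gene. A second form of the element, ATTGG and CCACG separated by 1 base, was found in 15 of the 27305 promoters (0.0549%) and in 10 of the 9951 of genes tested (0.1%). It was found in 2 members (1.57%), HERPUD1, which rose, and HYOU1, whose direction depended on the fit as given above. The stretch of HERPUD1 is given with the same marking.
HERPUD1, chr16:56932016-56932044, plus strand: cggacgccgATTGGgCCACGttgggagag

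The cytosolic chaperones and cochaperones were mostly lower. Of 18 members, 11 fell, 7 did not pass and 0 rose by edgeR's quasi-likelihood test, with a median of -0.18. Of the list 61.1% fell and 0% rose, beside 30.6% and 31.7% of all genes. At an unadjusted p under 0.05, 2 were higher, and DESeq2 called 1 higher. On log2(TPM + 1) the list had 5 called higher, 5 lower and a median of 0.04. All 14178 genes then had 6934 higher, 2428 lower and a median of 0.23. The sign of the list's median thus depended on how the samples were scaled, but it stayed under that of all genes. DNAJC5, a cochaperone of synaptic and secretory vesicles, showed the largest fall, from 56.6, 58.7 and 57.2 FPKM in PBS to 36.2, 35.1 and 37.1 FPKM (log2 fold change -0.77, SE 0.04). DNAJB12, an ER membrane cochaperone that faces the cytosol, and HSPBP1, an exchange factor of Hsp70, fell by 0.59 each on the log2 scale. The stress-inducible Hsp70 genes HSPA1A (mean 103 to 77.3 FPKM, -0.52) and HSPA1B (99.7 to 78.0 FPKM, -0.46) fell together, but they are near-identical copies and the division of reads between them is uncertain. These 5 were called lower in all 16 alternative fits.

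The abundant constitutive chaperones of the cytosol changed little. HSPA8 (Hsc70) was at 476, 477 and 477 FPKM in PBS and at 467, 462 and 474 with rhSema3C. Its log2 fold change of -0.13 passed (adjusted p = 0.00529 by edgeR's quasi-likelihood test) but was 0.10 on log2(TPM + 1). The constitutive Hsp90 gene HSP90AB1 went from a mean of 378 to 347 FPKM (-0.23), and the inducible HSP90AA1, at 101 and 106 FPKM, did not pass (-0.03, SE 0.07), and was called lower at -0.17 without the GC and length trend.

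The translocon genes did not move together. Of 13 members, 3 rose (23.1%), 6 fell (46.2%) and 4 did not pass, where 31.7% of all genes rose and 30.6% fell. The median was -0.10, and leaving out a sample moved it between -0.15 without PBS replicate 2 and -0.04 without PBS replicate 3. Library size alone put it at 0.01, beside 0.13 over all genes. SEC61A1, the channel subunit (chr3:128051641-128071683, plus strand), went from 164, 169 and 160 FPKM to 122, 115 and 120 FPKM, a log2 fold change of -0.57 ± 0.04 (SE, adjusted p = 6.68e-07 by edgeR's quasi-likelihood test). The small subunit SEC61B, at 70.2, 63.6 and 75.2 FPKM in PBS and 69.8, 69.7 and 70.5 with rhSema3C, did not pass (-0.10), and was called lower without PBS replicate 2 (-0.15) and without the GC and length trend (-0.14). The other small subunit, SEC61G, went from 4.65, 4.23 and 5.42 FPKM to 6.49, 6.98 and 7.61 FPKM. Its groups did not overlap and it rose by the test (0.46, SE 0.12), but without the GC and length trend it was at 0.09 and did not pass. Thus the subunits of the Sec61 trimer differed in both level and change, and SEC61A1 alone of the 3 kept its call in every alternative fit.

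Around the channel, TRAM1, which contacts nascent chains in the translocon, rose (mean 22.8 to 34.5 FPKM, log2 fold change 0.49, and 0.16 without the GC and length trend), and the Hsp40-like SEC63 rose by less (0.29), with -0.05 after removal of the GC and length trend. Within the TRAP complex, which assists the insertion of some signal sequences, SSR3 (-0.60) and SSR2 (-0.54) fell, and the other two did not hold a direction. SSR4 passed as lower (-0.15), lost that call without PBS replicate 3 (-0.13) or rhSema3C replicate 1 (-0.12), and was called higher without the GC and length trend (0.12). SSR1 did not pass (0.09) and was called lower without that trend (-0.24). SSR3 was at 50.8, 46.3 and 49.0 FPKM in PBS and 33.3, 37.2 and 33.1 FPKM with rhSema3C. Its fall was larger without the GC and length trend (-0.91), its transcript having a GC content of 40%. The sheet protein CKAP4 (CLIMP-63) fell from a mean of 88.2 to 70.2 FPKM (-0.43).

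The genes of N-glycosylation, glycan trimming and lectin quality control were the list with the lowest median (-0.23). Of 18 members, 11 fell (61.1%), 3 rose (16.7%) and 4 did not pass, where 30.6% of all genes fell and 31.7% rose. The median was negative with TMM factors, library size alone and the GC and length trend removed. On log2(TPM + 1) it was 0.00, with 6 higher and 3 lower. All 14178 genes then had a median of 0.23, with 6934 higher and 2428 lower. The glucosidase II subunits PRKCSH (log2 fold change -0.43) and GANAB (-0.30), which trim glucose from new glycans, both fell, GANAB from 256, 268 and 267 FPKM to 241, 222 and 226 FPKM. Of the oligosaccharyltransferase subunits, DAD1 (-0.37), DDOST (-0.25), RPN1 (-0.24) and STT3A (-0.19) fell, although DDOST did not pass without the GC and length trend (-0.08) nor STT3A with library size alone (-0.08). By contrast, STT3B (0.10), TUSC3 (-0.07) and the abundant RPN2 (0.00, at a mean of 224 and 241 FPKM) did not pass. RPN2 was called higher on other scales, at 0.10 with library size alone, and without the GC and length trend STT3B (-0.19) and TUSC3 (-0.40) were called lower.

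The mannosidases and cargo lectins of this list diverged. MAN1A1, a Golgi mannosidase, rose from 10.4, 9.73 and 10.8 FPKM to 14.9, 15.5 and 14.8 FPKM (log2 fold change 0.45), and its relative MAN1C1 fell from 1.93, 1.86 and 2.05 FPKM to 1.27, 1.09 and 1.28 FPKM (-0.79). LMAN2 (VIP36), a cargo lectin of the early secretory pathway, went from 203, 211 and 202 FPKM to 140, 136 and 142 FPKM (-0.66, SE 0.04). LMAN1 (ERGIC-53), the cargo receptor that cycles between ER and Golgi, rose (0.39), from 24.7, 21.9 and 25.5 FPKM to 32.0, 36.3 and 33. The groups of these 4 genes did not overlap. LMAN1 and the folding sensor UGGT2 (0.38) lost their calls without the GC and length trend, at 0.06 and 0.03, whereas MAN1A1, MAN1C1 and LMAN2 kept theirs in every alternative fit that included them. The other folding sensor, UGGT1, was called lower (-0.22), and was lower at -0.43 without that trend.

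ERAD was the largest list, and of its 45 members 15 rose, 19 fell and 11 did not pass. The median was -0.07, beside 0.02 over all genes, and with library size alone the 2 medians were 0.04 and 0.13. The share of rises (33.3%) was close to the 31.7% of all genes, and 42.2% fell beside 30.6%. On log2(TPM + 1) 21 were higher and 6 lower, beside 6934 and 2428 of all 14178 genes. Without the GC and length trend 8 (17.8%) were higher and 26 (57.8%) lower (median -0.15), beside 24.8% and 31.4% of all genes. The membrane core of the Hrd1 ligase was not uniform. SEL1L, the adaptor of the ligase, rose from 7.91, 7.02 and 8.11 FPKM to 11.3, 11.1 and 11.1 FPKM (log2 fold change 0.44, SE 0.05), and HERPUD1, which recruits factors to the ligase, from 11.7, 12.4 and 13.2 FPKM to 17.2, 16.7 and 16.6 FPKM (0.34, SE 0.05). The ligase gene SYVN1 itself, at a mean of 14.2 FPKM in both groups, did not pass (-0.10), and it was called higher at 0.13 without the GC and length trend. The channel-forming derlins DERL1 (-0.25) and DERL2 (-0.27) fell, and were lower at -0.49 and -0.59 without that trend. HERPUD1 kept its call in every alternative fit, and SEL1L lost its call without the trend (0.09, adjusted p = 0.094 by edgeR's quasi-likelihood test).

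At the recognition step, EDEM1, a mannosidase-like protein that marks glycoproteins for degradation, rose (0.31), and the lectin OS9 fell (-0.28). EDEM2 passed as lower (-0.21), but not with library size alone (-0.10), without the GC and length trend (-0.02), without PBS replicate 1 (-0.18) or without rhSema3C replicate 3 (-0.16). EDEM3 did not pass (-0.01) and was called lower without that trend (-0.36). At the step of extraction, VCP, the p97 ATPase, went from 93.6, 96.2 and 92.3 FPKM to 68.9, 65.5 and 68.3 FPKM, a log2 fold change of -0.58 ± 0.04 (SE, adjusted p = 5.06e-07 by edgeR's quasi-likelihood test). Its groups were well apart. The p97 cofactor NPLOC4 (-0.41) also fell, and the partner UFD1 passed as lower (-0.15), but not with library size alone (-0.04), without PBS replicate 2 (-0.13) or without rhSema3C replicate 1 (-0.12).

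The 3 largest rises of the list were those of ATXN3, NGLY1 and YOD1. The deubiquitinase ATXN3 went from 0.797, 0.691 and 0.666 FPKM to 1.13, 1.44 and 1.17 FPKM (log2 fold change 0.69), the deubiquitinase YOD1 from a mean of 1.58 to 2.56 FPKM (0.59), and NGLY1, which removes N-glycans from extracted proteins, from 2.78 to 4.55 FPKM (0.61). Each was low in level beside VCP, and each was called higher in every alternative fit that included it. The largest falls in the list were those of the ubiquitin ligases STUB1 (CHIP, -0.61, from a mean of 41.0 to 28.9 FPKM) and RNF5 (-0.57, from 70.4 to 50.9 FPKM) and of VCP. BCAP31, an abundant ER membrane protein involved in the export and disposal of membrane proteins, fell (-0.30), with -0.05 without the GC and length trend.

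The COPII coat was the list with the largest share of rises. Of 12 members, 8 rose, 3 fell and 1 did not pass, with a median of 0.24. Without the GC and length trend the median was 0.01, with 5 higher (41.7%) and 4 lower (33.3%). All genes then had a median of -0.03, with 24.8% higher and 31.4% lower. With TMM factors 66.7% of the list rose and 25% fell, beside 31.7% and 30.6% of all genes. SEC31B, the low-abundance relative of SEC31A, went from 0.808, 0.789 and 0.827 FPKM to 1.81, 1.77 and 1.73 FPKM, a log2 fold change of 1.02 ± 0.10 (SE, adjusted p = 3.88e-06 by edgeR's quasi-likelihood test). The outer-coat gene SEC31A rose from 11.8, 11.9 and 12.4 FPKM to 18.5, 17.7 and 18.5 FPKM (0.50), and the inner-coat genes SEC23A (mean 12.3 to 18.0 FPKM, 0.45) and SEC23B (30.9 to 39.3 FPKM, 0.24) rose with it. Among the cargo adaptors SEC24D (0.37) rose and SEC24C (-0.43) fell. SEC13, which pairs with Sec31 in the outer cage, fell from 46.4, 47.0 and 45.4 FPKM to 39.5, 37.7 and 37.6 FPKM (-0.38), and PREB (Sec12), which starts coat assembly by activating Sar1, fell by 0.49 on the log2 scale. All of these COPII genes were called in the same direction in every alternative fit that included them.

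**Figure D2:**
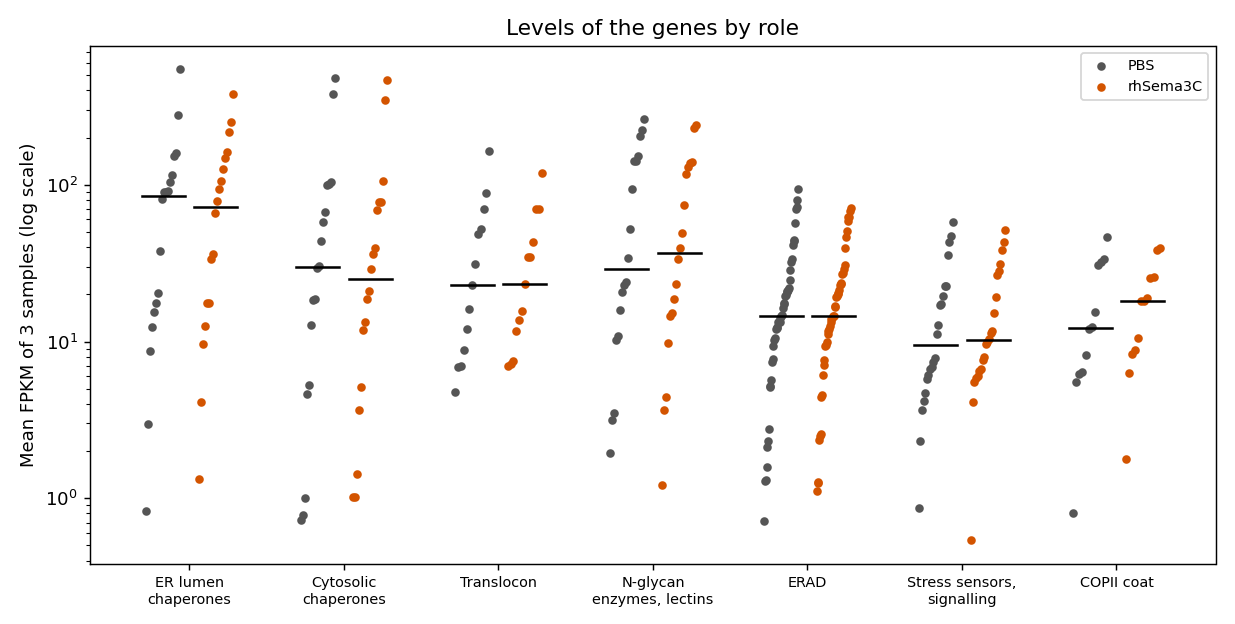
Mean FPKM over the 3 samples of a group (y axis, log scale) for each member in the 7 role lists (x axis), with PBS in grey, rhSema3C in orange and a bar at each list's median. The ER lumen list holds the most abundant member in PBS, CALR at 543 FPKM, and the stress sensors and COPII genes lie lower, with XBP1 at 51.1 FPKM with rhSema3C.

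The divergence of partners and paralogs was also measured as the ratio of their FPKM within a sample, which does not depend on how samples are scaled against each other. The 8 pairs were chosen after the fold changes were seen, and their ratios are a description. With 3 samples against 3, an exact permutation test cannot give a two-sided p under 0.1. The log2 ratio of CANX to CALR was -2.39 ± 0.06 (SD, n = 3) in PBS and -1.35 ± 0.04 with rhSema3C, a 2.06-fold shift. That of ATF6 to ATF6B went from -2.41 ± 0.06 to -1.35 ± 0.05, and that of LMAN1 to LMAN2 from -3.10 ± 0.15 to -2.05 ± 0.12. For SEC61G to SEC61A1 the samples were at -5.14, -5.32 and -4.88 in PBS and at -4.23, -4.05 and -3.97 with rhSema3C. Each of these 4 ratios shifted about as much as the others, by 1.03 to 1.06 on the log2 scale. Smaller shifts were found for SEC31A to SEC13 (0.87), SEC24D to SEC24C (0.81), HSPA5 to its cytosolic relative HSPA8 (0.54) and EDEM1 to EDEM2 (0.52). In all 8 pairs the groups did not overlap, but pairs chosen in this way were likely to show that, and no other pairs were measured. In each pair the gene that gained is the one of lower GC content. Without the GC and length trend, CANX and CALR had log2 fold changes of 0.13 and -0.46, and ATF6 and ATF6B of 0.23 and -0.26. LMAN1 and LMAN2 were then at 0.06 and -0.41, and SEC61G and SEC61A1 at 0.09 and -0.39.

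**Figure D3:**
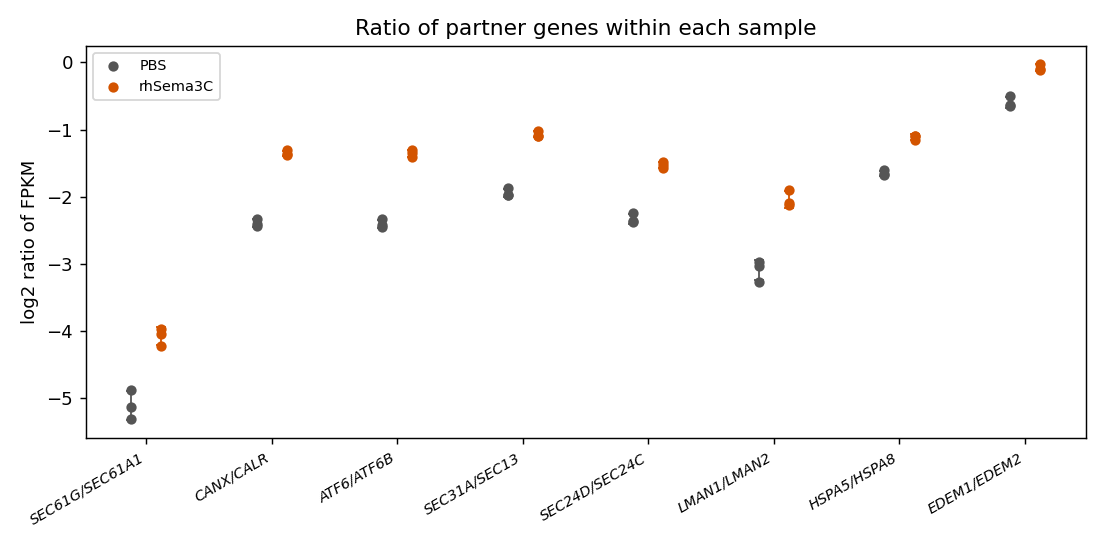
Log2 ratio of the FPKM of partner or paralog genes within each sample (y axis) for 8 pairs (x axis), with PBS in grey, rhSema3C in orange and bars giving the SD around the mean of 3 samples. The pairs were chosen after the fold changes were seen. In every pair the 3 rhSema3C samples lie above the 3 PBS samples, as for CANX to CALR at -1.35 against -2.39.

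Genes of the same processes that lie outside the KEGG entry gave a similar mixture. Of all genes tested, 31.7% rose and 30.6% fell. Of 16 genes linked to the unfolded protein response, 4 rose (25%) and 9 fell (56.2%), with a median log2 fold change of -0.25. DNAJB9 (ERdj4), a cochaperone of BiP, rose the most, from 4.50, 4.09 and 4.24 FPKM to 8.29, 9.5 and 7.8 FPKM (0.89, SE 0.10), and SDF2L1, which works with BiP and ERdj3, fell the most, from 36.5, 35.8 and 35.5 FPKM to 22, 21.1 and 17.8 FPKM (-0.93, SE 0.08). Of 13 genes of the signal recognition particle, its receptor and signal peptidase, 6 rose (46.2%) and 2 fell (15.4%), with a median of 0.12. They ran from SRP72 at 0.54 to the receptor subunit SRPRA at -0.21, whose call was lost with library size alone (-0.11). All 10 subunits of the ER membrane protein complex, an insertase for membrane proteins, were called, 4 higher (40%) and 6 lower (60%). They ran from EMC2 at 0.73 to EMC10 at -0.67.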

How the data were processed

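Total RNA of LX-2 cells was extracted with TRIzol and sequenced on an Illumina NovaSeq instrument by the study. The authors deposited 1 table that holds, per gene and sample, whole-number counts and FPKM values, with gene coordinates and a KEGG column. The study names Cufflinks and cuffmerge for its own comparison. The aligner, the counting tool, the strand setting and the build were not given in the sources used here. All 146 members overlap their GENCODE v29 gene on GRCh38 and 44 have its exact bounds, so coordinates are read as GRCh38. All value columns belonged to samples of the series (0 were left unused).

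Genes whose FPKM averaged 0.5 or more across the 6 samples were tested with edgeR 4.0.16 in R 4.3.3, from the deposited counts, with TMM factors and the quasi-likelihood test without covariates, and p-values were adjusted by Benjamini-Hochberg over all 14178 genes. A gene was called at an adjusted p under 0.05. Fold changes come from this fit and levels from the deposited FPKM, whose ratios run slightly higher because FPKM is not scaled by TMM. TMM factors were 0.958 to 0.968 in PBS and 1.033 to 1.042 in rhSema3C samples. Pairs of replicates differed beyond counting noise (chi-square per degree of freedom 15.9 to 27.6), and no member was at or under 3 counts in a group. Alternatives used DESeq2 1.42.0, limma 3.58.1 on log2 values with pseudocounts of 1 and 0.1, other scalings and filters, the replicate number as a block, and fits that dropped 1 sample at a time. A correction that removes the dependence of each library on GC content and length (splines of 4 degrees of freedom) was added after seeing the data. The edgeR, DESeq2 and limma log2(FPKM + 1) fits were tested on simulated counts in which few genes changed, unlike these data. The GC and length correction and the log2(TPM + 1) scale were not part of that test.

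Members, role lists and tests were chosen with earlier results of these data known. Named genes were, per role list, the 3 largest rises and falls among called members and the 3 of highest mean FPKM, the sensors and a fixed set of chaperone, ERAD and Sec61 genes, and the extremes of each outside list. Other members named (ATF6B, MBTPS1, MBTPS2, MAP3K5, BAK1, HSPA1A, HSPA1B, PDIA3, PDIA6, HYOU1, SSR1, SSR4, DAD1, DDOST, RPN1, STT3A, STT3B, TUSC3, UGGT1, EDEM1, EDEM2, EDEM3, NPLOC4, UFD1 and SEC24D) were chosen after their values were seen. Of the members, 89 overlap another gene of the table, 68 on the other strand and 33 on the same strand, and their counts are uncertain to that extent. Protein sequences were not analysed here.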

Additional observations from a re-analysis of the deposited data

How the results depend on the processing

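The counts of 44 members higher and 66 lower stayed within 1.5 times under 15 of 16 alternatives, and were 71 and 29 with limma on log2(TPM + 1). The members' median log2 fold change of -0.08 became 0.029 with library size alone, 0.148 on log2(TPM + 1), 0.024 on log2(FPKM + 1), 0.025 on log2(FPKM + 0.1), -0.013 with a mean FPKM of at least 5, and -0.141 with the GC and length trend removed. Among the named genes that were called with TMM factors or in the alternative, the sign turned on log2(TPM + 1) for HSPA8 (0.10), CAPN2 (0.0066), MBTPS1 (0.0062), UGGT1 (0.008), EDEM2 (0.019), STT3A (0.037), HYOU1 (0.058), UFD1 (0.078), SSR4 (0.081), PDIA3 (0.15), PDIA6 (0.16), TUSC3 (0.15) and SRPRA (0.015). With the GC and length trend removed it turned for HSP90B1 (-0.27), SSR1 (-0.24), STT3B (-0.19), SEC63 (-0.047), P4HB (0.0081), HYOU1 (0.043), SSR4 (0.12) and SYVN1 (0.13). Genes called in neither fit, such as HSP90AA1 and SEC61B, also crossed 0 under some scalings. RPN2 went from 0.00 to 0.10 with library size alone, 0.22 on log2(TPM + 1), 0.10 on log2(FPKM + 1), 0.10 on log2(FPKM + 0.1), 0.10 with a mean FPKM of at least 5 and 0.10 with the GC and length trend removed. The cause of these changes was not tested. Leaving out each sample in turn gave 42 to 45 members higher and 62 to 67 lower. With the replicate number as a block, 43 members were higher and 65 lower. Deviations of same-numbered samples correlated at -0.0041, 0.058 and -0.027. The labels do not say whether same-numbered samples were set up together, and with 3 samples per group these correlations cannot decide it. With 3 samples per group, the spread between samples is itself estimated from few values.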
